A study of Mus musculus with 6 samples.

Results

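The genes described here encode chromatin modifiers and remodellers, the proteins that read, write and erase marks on histones or move nucleosomes along DNA. They were chosen by symbol, as the histone deacetylases (Hdac), sirtuins (Sirt), lysine demethylases (Kdm), lysine methyltransferases (Kmt and Setd), nucleosome remodellers (Smarc and Chd), Polycomb and heterochromatin proteins (Cbx, Ezh, Phc, Suz12 and Eed), and Sap30 and Trim28. The rule uses symbols and no measured value, but it was chosen with earlier results of these data known. On the array, 74 probes named 55 such genes, of 37225 genes in all, and all 55 passed the filter on dim probes, which left 35792 genes. A further 50 symbols that meet the same rule, Smarca4, Kdm1a and Kmt2a among them, were not named by a probe and are not analysed here. RNA from 3 kinds of cultured mouse cells was hybridised to 6 Agilent oligonucleotide arrays, 2 for each kind. Multipotent adult progenitor cells (MAPC) are an adherent cell population derived from bone marrow. Both MAPC arrays carry the name mMAPC-1 and are described as MAPC clone 2 (high Oct4), that is, 1 clone. The cells had been depleted of CD45-positive and Ter119-positive cells after 4 weeks, replated at 10 cells per well and grown past 80 population doublings in 5% oxygen and 6% carbon dioxide. Their medium held 2% serum, epidermal growth factor and platelet-derived growth factor BB at 10 ng/mL and leukemia inhibitory factor at 1000 units/mL. Embryonic stem cells (ESC) of strain C57BL/6 were kept on irradiated embryonic fibroblasts in 15% serum with leukemia inhibitory factor, and were plated free of feeders before RNA was collected. Neurospheres (NS), floating clusters of neural progenitors, came from the forebrain neuroepithelium of C57BL/6 embryos at stage E11.5 and grew with fibroblast and epidermal growth factors at 20 ng/mL. Each sample carried Cy3 and was set against Cy5-labelled RNA pooled from 11 mouse cell lines, so values are log2 ratios of sample to that reference. The series states 2 biological replicates per kind, but both MAPC arrays come from 1 clone. All p-values rest on a spread pooled over the 3 kinds of cells, so they do not measure the spread between MAPC clones. Cell type and culture medium cannot be told apart.

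Polycomb repressive complex 2 (PRC2) methylates lysine 27 of histone H3, and the Cbx subunits of Polycomb repressive complex 1 (PRC1) bind that mark, so that together they hold developmental genes silent. Histone deacetylases work inside the Sin3, NuRD, CoREST and NCoR corepressor complexes, and heterochromatin protein 1 (HP1) binds methylated lysine 9 of histone H3. SWI/SNF (BAF), ISWI and CHD enzymes use ATP to slide or eject nucleosomes. Several of these complexes exchange subunits of the same family as embryonic stem cells differentiate and as neural progenitors become neurons.

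Genes listed as markers of each kind of cell describe the arrays here and are no independent check of identity. Of 6 genes listed for MAPC (Sox17, Sox7, Foxa2, Pdgfra, Krt8 and Krt18), 6 were higher in MAPC than in ESC and 6 were higher in MAPC than in NS. All 5 measured ESC markers were lower in MAPC than in ESC, and 3 of these 5 were higher in ESC than in NS, where Sox2 and Esrrb did not pass the test. In MAPC minus NS, 1 of the 5 was higher (Pou5f1, by 1.39) and 2 were lower (Sox2 by -5.64 and Esrrb by -0.24). Of 6 NS markers, 5 were lower in MAPC than in NS and 5 were lower in ESC than in NS, and Sox1 passed neither test. Fibroblast genes, which feeder cells would carry, moved with ESC: the mean log2 ratio of the 6 listed genes was -2.66 and -2.68 on the MAPC arrays, 0.28 and 0.21 on the ESC arrays and -1.54 and -1.59 on the NS arrays, and 5 of the 6 were lower in MAPC than in ESC. Between 5 and 6 of them were well above background on every array. For 7 proliferation genes the mean was 0.84 and 0.78 in MAPC, 0.82 and 0.77 in ESC and 0.37 and 0.34 in NS. Of 5 measured neuron genes, 1 was higher and 1 lower in MAPC than in ESC, 1 higher (Tubb3) and 4 lower in MAPC than in NS, and 2 higher and 3 lower in ESC than in NS. Of 5 measured blood cell genes, Lyz2 alone was called, lower in MAPC than in ESC by -2.98 and higher in ESC than in NS by 2.98, and Ptprc, which encodes CD45, passed in no comparison. The part of feeder RNA, of neurons, of blood cells and of proliferation in the results below was not tested.

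Promoters are shown for the PRC2 core genes Eed, Ezh2 and Suz12, which the results below treat as a complex, and for Sap30 and Phc1, which had the largest differences between MAPC and ESC among corepressor subunits and among polyhomeotic genes. They were picked after the values were seen. Each run is RefSeq sequence of build GRCm38.p6, 300 bases that run from upstream of the gene's start to just past it, read along the gene's strand. Capitals mark motif matches on either strand. The GC box was searched as GGGCGG. The CCAAT box was searched by the letters of its name. For the E2F site both TTTGGCGC and its other form TTTCCCGC were searched. No motif contains another.
Eed, chr7:89980927-89981226, minus strand: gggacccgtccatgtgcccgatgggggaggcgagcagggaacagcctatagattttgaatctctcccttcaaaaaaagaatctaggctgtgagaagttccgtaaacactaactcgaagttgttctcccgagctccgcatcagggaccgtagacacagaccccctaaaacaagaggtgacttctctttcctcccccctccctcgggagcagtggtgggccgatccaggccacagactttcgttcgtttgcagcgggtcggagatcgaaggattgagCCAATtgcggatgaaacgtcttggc
Ezh2, chr6:47594981-47595280, minus strand: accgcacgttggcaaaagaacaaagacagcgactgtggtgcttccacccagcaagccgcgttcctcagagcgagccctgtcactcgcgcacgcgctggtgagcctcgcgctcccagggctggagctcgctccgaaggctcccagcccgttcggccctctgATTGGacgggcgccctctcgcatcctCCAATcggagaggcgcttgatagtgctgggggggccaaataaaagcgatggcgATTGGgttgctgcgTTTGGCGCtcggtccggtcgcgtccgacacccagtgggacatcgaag
Suz12, chr11:79992856-79993155, plus strand: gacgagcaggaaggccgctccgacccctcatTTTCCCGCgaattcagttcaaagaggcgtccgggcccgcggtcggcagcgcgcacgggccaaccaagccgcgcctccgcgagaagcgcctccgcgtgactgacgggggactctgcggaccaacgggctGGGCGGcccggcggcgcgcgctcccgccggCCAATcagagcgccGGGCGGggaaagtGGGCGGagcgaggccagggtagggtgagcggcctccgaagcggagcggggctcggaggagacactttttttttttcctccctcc
Sap30, chr8:57487811-57488110, minus strand: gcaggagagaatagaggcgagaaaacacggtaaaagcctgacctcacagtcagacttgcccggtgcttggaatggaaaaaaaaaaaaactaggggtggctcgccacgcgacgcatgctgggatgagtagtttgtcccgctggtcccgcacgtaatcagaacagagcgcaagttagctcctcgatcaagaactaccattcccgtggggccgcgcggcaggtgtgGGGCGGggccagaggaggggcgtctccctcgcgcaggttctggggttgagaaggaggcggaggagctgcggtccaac
Phc1, chr6:122340178-122340477, minus strand: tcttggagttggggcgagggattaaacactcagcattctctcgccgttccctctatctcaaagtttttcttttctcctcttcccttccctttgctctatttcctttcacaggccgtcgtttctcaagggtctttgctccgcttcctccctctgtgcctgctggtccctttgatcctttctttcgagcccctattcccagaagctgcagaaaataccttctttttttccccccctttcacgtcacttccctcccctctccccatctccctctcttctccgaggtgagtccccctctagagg
Promoters were found for 46 of the 55 genes. The median member promoter held 22 CG dinucleotides and 61.5% G and C, while the median of all 27025 promoters held 7 and 52.7%. A GC box lay in 73.9% of member promoters and in 35.9% of all promoters, and a CCAAT box in 43.5% and 37.9%. TATAAA was found in 2.17% of member promoters, against 14.2% of all. The form TTTGGCGC was held by Ezh2 alone among the members (2.17%, against 0.537% of all promoters). Suz12, Smarcd1 and Kmt5c held TTTCCCGC, which is 6.52% of member promoters and 1.11% of all. An NRF1 site lay in the Phc3 promoter, at 2.17% against 0.977%. Of the promoters printed here, that of Phc1 held 9 CG dinucleotides and none of the motifs, and that of Suz12 held 41. A match is a stretch of letters and no measure of binding.

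A log2 difference is the first group named minus the second, so that a negative value means lower in the first. Chromatin genes tended to be lowest in MAPC and highest in ESC. By group means, 11 of the 55 were highest in MAPC, 32 in ESC and 12 in NS, where the shares over all genes tested were 41%, 28.5% and 30.5%. Conversely 25 (45.5%) were lowest in MAPC, 12 (21.8%) in ESC and 18 (32.7%) in NS, where the shares over all genes were 31.1%, 29.1% and 39.8% and those over named genes 32.7%, 25.2% and 42.2%. Set against ESC, 44 members passed the test in MAPC (limma, adjusted p under 0.05), 12 higher and 32 lower, with a median log2 difference of -0.40. Over all genes tested, 38.1% were called, 16% higher and 22.1% lower, with a median of 0.01, and among genes with a symbol 50.4% were called, 21.1% higher and 29.3% lower. Set against NS, 38 members passed in MAPC, 15 higher and 23 lower, with a median of -0.09. The background there was 43.8% of all genes, 21.2% higher and 22.6% lower, with a median of 0.03, and 55.2% of named genes, 28.8% higher and 26.4% lower. Between ESC and NS, 35 members passed, 24 higher and 11 lower in ESC, with a median of 0.14. The background was 38.2% of all genes, 19.8% higher and 18.4% lower, with a median of 0.01, and 51.1% of named genes, 29.4% higher and 21.6% lower. These 3 comparisons share arrays and are not independent of each other. All counts of members go by the brightest probe. Those lower or lowest in MAPC include Cbx5 and Chd3, for which no direction can be given once their other probes are read. Of 75 measured partner genes, listed with the same complexes or marks but outside the rule, 68%, 60% and 72% were called in the same order of comparisons. Counts by complex or partner list below stand beside these background shares, cover few genes each and were not tested against them. In RNA of whole cultures, fewer cells that express a gene and less RNA per cell cannot be told apart. Calls of at least 1 log2 unit, which is 2-fold, covered 13 members in MAPC against ESC (1 higher and 12 lower, against a background of 8.58%, 2.95% higher and 5.63% lower). In MAPC against NS they covered 13 members (5 higher and 8 lower, background 11.4%, 4.44% higher and 6.99% lower). In ESC against NS they covered 15 members (10 higher and 5 lower, background 8.99%, 4.72% higher and 4.27% lower). The member counts are out of 55, and these backgrounds are shares of all genes. Among named genes the shares at this size were 12.8%, 16.3% and 13.4% in the same order of comparisons. The probes of the members were brighter than most, with a median log2 intensity of 9.91, against 8.76 for named genes and 8.08 for all genes, and the part of brightness in these shares was not tested.

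**Figure D1:**
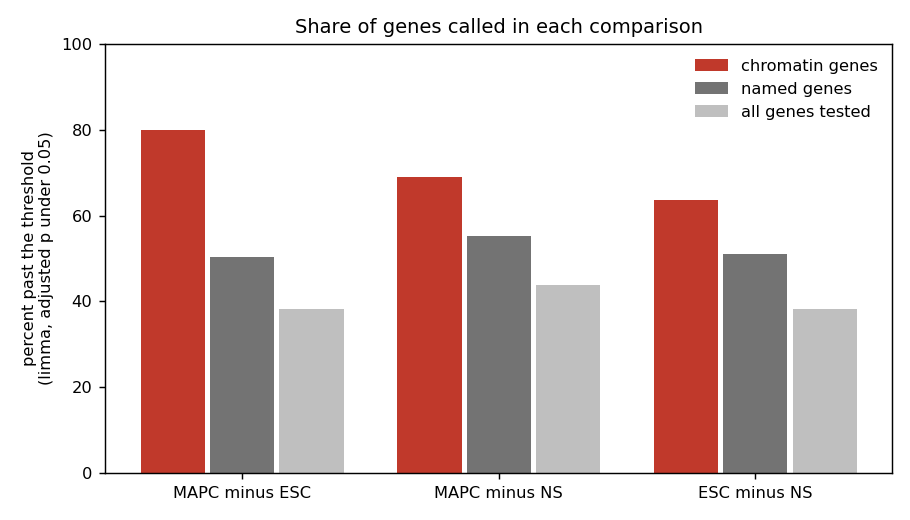
Percent of genes past the threshold (limma, adjusted p under 0.05) in each comparison, as bars for the 55 chromatin genes, the named genes and all genes tested. The chromatin genes reached 80% in MAPC minus ESC, against 50.4% of named genes and 38.1% of all genes.

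The distance between groups was larger than that between replicates. The root mean square log2 difference over the members was 1.20 between MAPC and ESC, 1.15 between MAPC and NS and 1.03 between ESC and NS. Over all genes it was 0.658, 0.786 and 0.651 in the same order of comparisons. Replicate arrays differed over the members by 0.120 in MAPC, 0.154 in ESC and 0.100 in NS. The arrays did not overlap for 51 members (92.7%) in MAPC against ESC, 46 (83.6%) in MAPC against NS and 42 (76.4%) in ESC against NS, where 68.3%, 72.4% and 65.2% of all genes did not overlap. Replicate 1 and replicate 2 arrays carry different image extraction days, each of which holds all 3 groups. Within both days, 117 of 117 called member differences had the same sign. The calls come from the same arrays, which favours equal signs, so this is no independent check of the day. At least 1 comparison was called for 49 members, against 55.5% of all genes. Chd8, Cbx2, Smarce1, Kdm1b, Kdm5a and Kmt5c passed in none. When a single array was left out, 20 of the 117 called differences lost their call, none of them over 0.45 log2 units in size, and they are named with the limits of the processing.

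**Figure D2:**
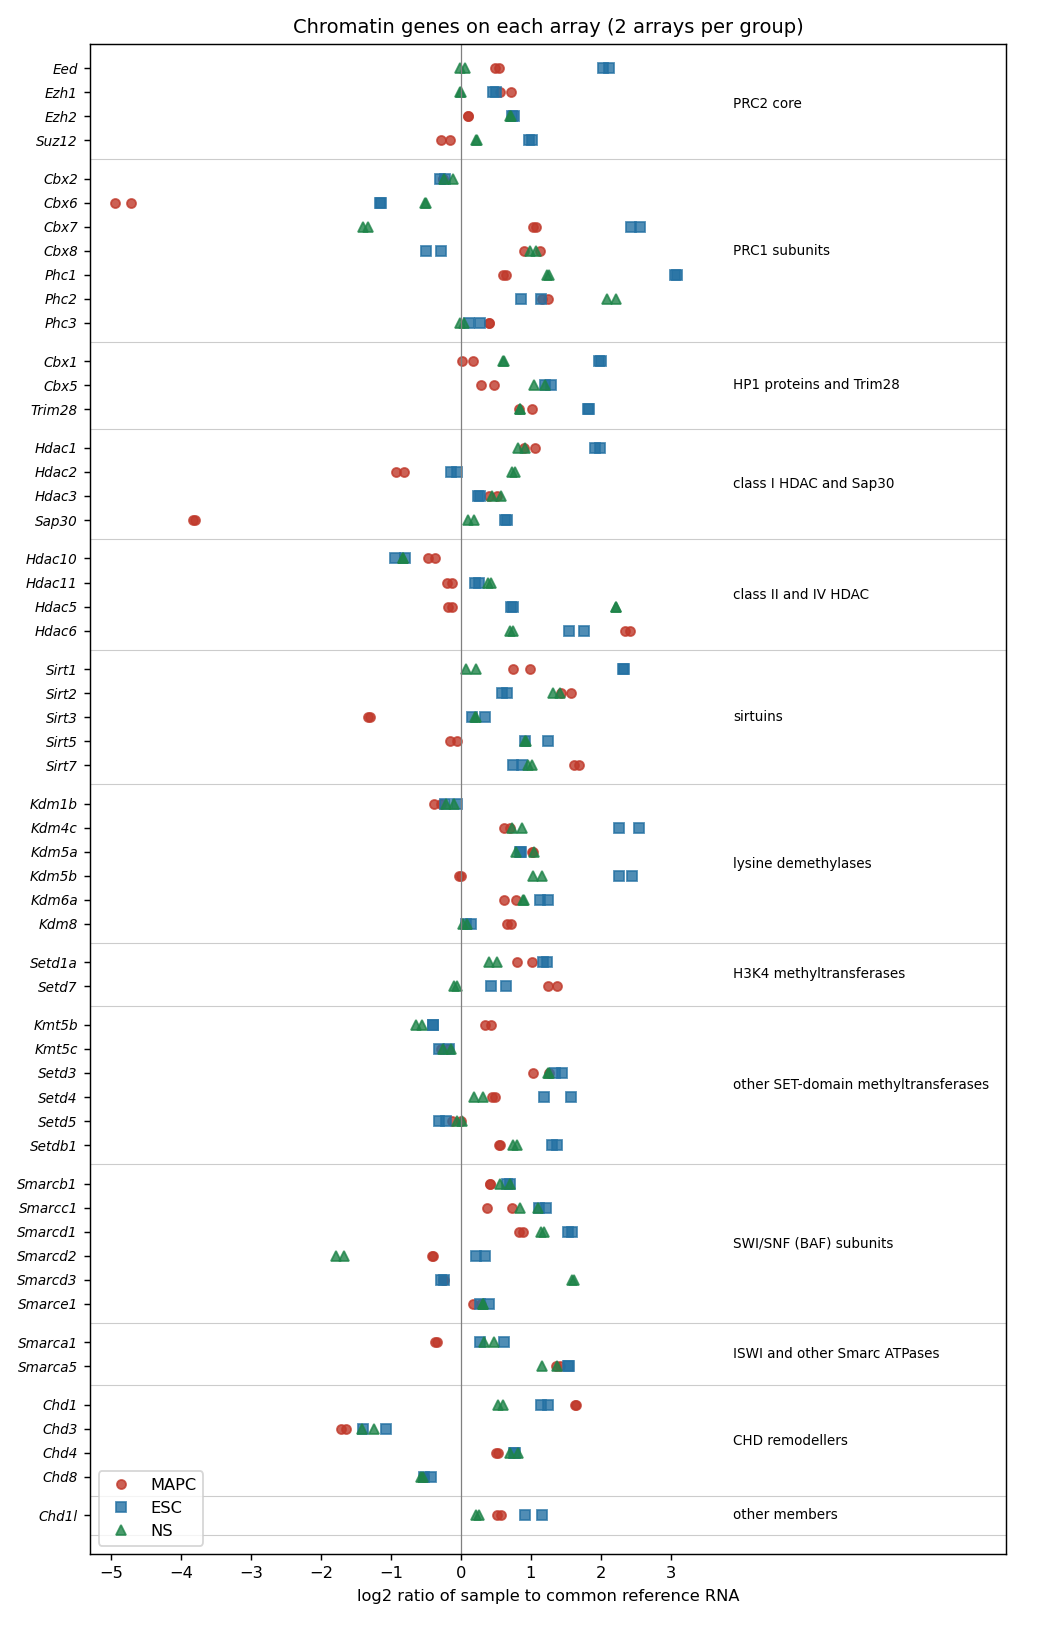
Log2 ratio of sample to common reference RNA (x axis) for 54 chromatin genes (rows, grouped by complex or family), with 1 point per array for MAPC, ESC and NS. The points of Sap30 and Cbx6 in MAPC lie between -3.81 and -4.95, apart from every other point in the plot.

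Of the 4 PRC2 core genes, 3 were lower in MAPC than in ESC and none was higher. Eed, whose protein binds methylated lysine 27 and stimulates the complex, had log2 ratios of 0.48 and 0.54 in MAPC, 2.04 and 2.12 in ESC and 0.05 and -0.01 in NS. The ESC arrays were highest, NS lowest, and no groups overlapped. Eed was lower in MAPC than in ESC by a log2 difference of -1.57 ± 0.0593 (SE, limma, adjusted p = 6.22e-07), higher in MAPC than in NS by 0.49 ± 0.0593 (adjusted p = 0.000264), and higher in ESC than in NS by 2.06 ± 0.0593 (adjusted p = 1.79e-07). Suz12, the scaffold subunit, had -0.15 and -0.29 in MAPC, 0.97 and 1.01 in ESC and 0.21 and 0.23 in NS. MAPC held the lowest arrays for this gene and ESC the highest, without overlap. The difference was -1.21 ± 0.0625 for MAPC minus ESC (limma, adjusted p = 3.11e-06), -0.44 for MAPC minus NS and 0.77 for ESC minus NS, and all 3 passed. Ezh2, the main methyltransferase of dividing cells, was lower in MAPC than in both other groups, by -0.64 against ESC and -0.60 against NS, while ESC minus NS was 0.03 (adjusted p = 0.684). Its paralog Ezh1 differed by 0.16 between MAPC and ESC (adjusted p = 0.104) and was higher in MAPC than in NS by 0.64 and in ESC than in NS by 0.48. Both Ezh1 calls were lost in the sample channel alone, at 0.06 (limma, adjusted p = 0.798) and 0.04 (adjusted p = 0.882), they were 0.26 and 0.23 without background subtraction, and its signal of 145.5 on the second MAPC array lay under the highest negative control. Of 6 measured accessory subunits, 4 were lower in MAPC than in ESC and none higher. Mtf2, which helps to bring PRC2 to CG-rich DNA, had 0.70 and 0.74 in MAPC, 2.58 and 2.73 in ESC and 0.57 and 0.59 in NS. It was high in ESC alone, by -1.93 for MAPC minus ESC (limma, adjusted p = 3.43e-07) and 2.08 for ESC minus NS. Phf19, a relative of Mtf2, fell by 1.13 in MAPC against ESC. Rbbp4, a histone-binding protein shared with NuRD and Sin3, fell by 1.04 in MAPC against ESC and by 1.72 against NS.

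PRC1 subunits went in opposite directions within a family. Of the 8 measured here, 3 were higher and 3 lower in MAPC than in ESC, 2 higher and 4 lower in MAPC than in NS, and 2 higher and 4 lower in ESC than in NS. Cbx6 had log2 ratios of -4.95 and -4.72 in MAPC, -1.15 and -1.16 in ESC and -0.50 and -0.52 in NS. MAPC arrays stood far below the others, and no groups overlapped. The difference was -3.68 ± 0.0777 for MAPC minus ESC (limma, adjusted p = 4.32e-08) and -4.33 ± 0.0777 for MAPC minus NS (adjusted p = 1.27e-08), and ESC minus NS was -0.65. On the second MAPC array the background-subtracted Cbx6 signal of 121.1 lay under the highest of 314 negative control spots (164.6), and without background subtraction the first 2 differences were -2.51 and -3.12. Cbx7, a PRC1 chromodomain protein known from mouse ESC, had 1.03 and 1.08 in MAPC, 2.57 and 2.43 in ESC and -1.32 and -1.40 in NS. This gene ran in the order ESC, MAPC, NS without overlap. Its difference was -1.45 ± 0.0658 for MAPC minus ESC (limma, adjusted p = 1.59e-06), 2.42 for MAPC minus NS and 3.86 ± 0.0658 for ESC minus NS (adjusted p = 2.64e-08). Without background subtraction the 2 differences against NS were 1.77 and 3.15. Cbx8 had 0.90 and 1.14 in MAPC, -0.50 and -0.29 in ESC and 1.07 and 0.99 in NS. ESC was the low group, and MAPC and NS overlapped. It was higher in MAPC than in ESC by 1.41 ± 0.0976 (limma, adjusted p = 1.52e-05) and lower in ESC than in NS by -1.42, and without background subtraction these were 0.59 and -0.62. The Cbx8 signal of 69.5 on the second ESC array lay under the highest negative control there (83.3).

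The polyhomeotic proteins join PRC1 complexes to each other, and their 3 genes each had another order. Phc1 had log2 ratios of 0.65 and 0.61 in MAPC, 3.09 and 3.06 in ESC and 1.23 and 1.26 in NS. MAPC was lowest and ESC highest, with no overlap, and replicates lay close together. Phc1 was lower in MAPC than in ESC by -2.45 ± 0.0515 (limma, adjusted p = 4.28e-08), lower in MAPC than in NS by -0.62 and higher in ESC than in NS by 1.83 ± 0.0515 (adjusted p = 1.65e-07). From the sample channel alone the first of these was -3.05. Phc2 had 1.15 and 1.25 in MAPC, 0.85 and 1.15 in ESC and 2.09 and 2.23 in NS. NS stood above both other groups, by -0.96 for MAPC minus NS and -1.16 ± 0.101 for ESC minus NS (limma, adjusted p = 5.1e-05), while MAPC minus ESC was 0.20 (adjusted p = 0.173). Phc3 gave 0.21 for MAPC minus ESC and 0.39 for MAPC minus NS, both called. Its probe lay at or below the highest negative control on 4 of the 6 arrays, and these values ran between 0.05 and 0.49 and between 0.10 and 0.85 over the settings tried, with the call against ESC lost in 9 of the 19. Among 9 measured PRC1 partners, 4 were higher and 3 lower in MAPC than in ESC. Pcgf5, a subunit of variant PRC1, had 2.04 and 1.87 in MAPC, -0.69 and -0.74 in ESC and -1.01 and -1.02 in NS. Only in MAPC did it lie above the reference, by 2.67 over ESC (limma, adjusted p = 9.42e-08) and 2.97 over NS (adjusted p = 3.42e-08). Pcgf6, its relative in another variant complex, was higher in ESC than in NS by 1.76, as was L3mbtl2 by 1.54. Yaf2 was higher in MAPC than in ESC by 1.41 and lower in ESC than in NS by -1.52.

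**Figure D3:**
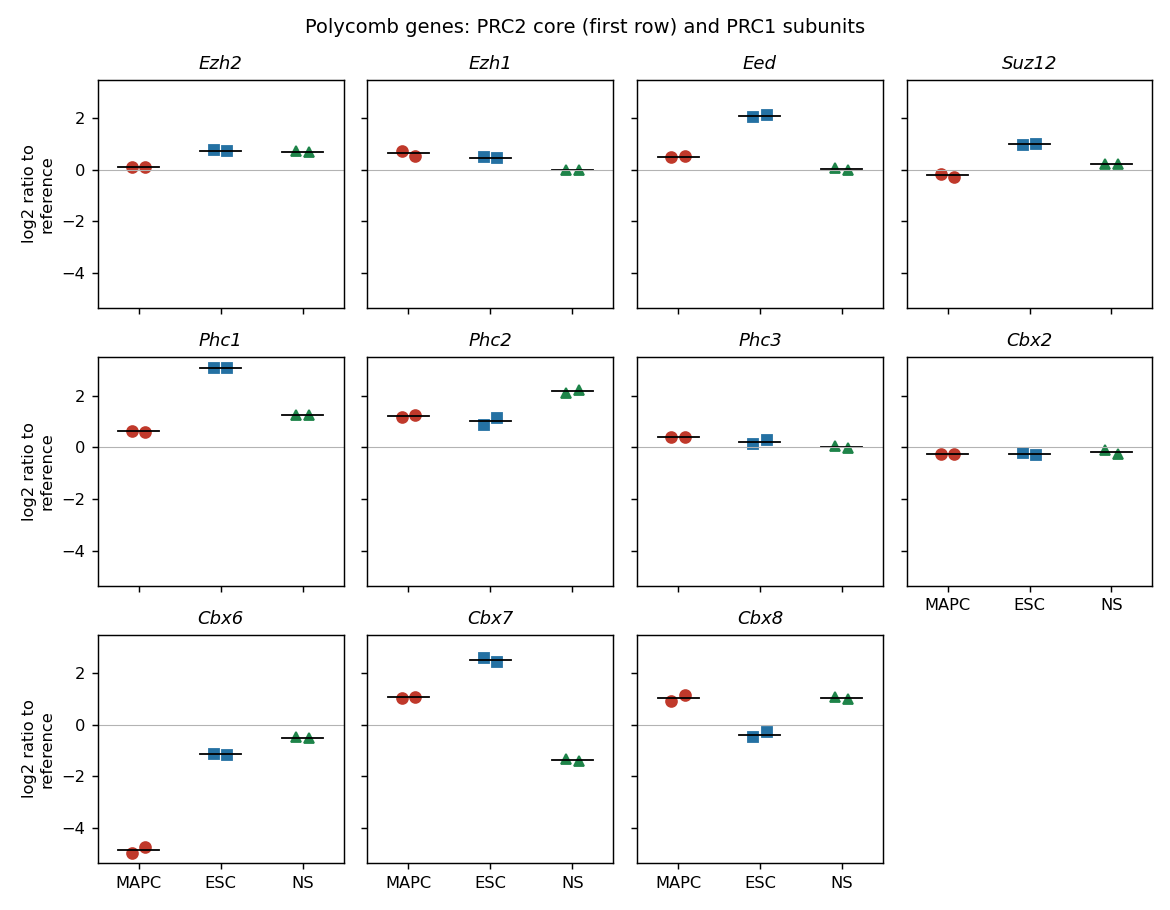
Log2 ratio to the reference (y axis) of 4 PRC2 core and 7 PRC1 genes in MAPC, ESC and NS, with 1 point per array and a bar at the group mean (n = 2). Eed and Phc1 are highest in ESC, Cbx6 is lowest in MAPC, Cbx7 is lowest in NS and Cbx8 is lowest in ESC.

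Of the HP1 genes, Cbx1 was lower in MAPC than in ESC, as was Trim28, while the probes of Cbx5 disagreed. Cbx3, also an HP1 gene, was not named by a probe. Cbx1 (HP1 beta) had log2 ratios of 0.17 and 0.02 in MAPC, 2.01 and 1.98 in ESC and 0.62 and 0.60 in NS. ESC was highest and MAPC lowest, without overlap. The difference was -1.90 ± 0.0643 for MAPC minus ESC (limma, adjusted p = 3.67e-07), -0.52 for MAPC minus NS and 1.38 ± 0.0643 for ESC minus NS (adjusted p = 1.69e-06). With the mean of its probes the first value was -1.29. Trim28, the corepressor that KRAB zinc finger proteins recruit, had 1.02 and 0.83 in MAPC, 1.82 and 1.84 in ESC and 0.85 and 0.85 in NS. Here ESC stood above both other groups, which overlapped. Trim28 was lower in MAPC than in ESC by -0.91 ± 0.0696 (limma, adjusted p = 2.69e-05) and higher in ESC than in NS by 0.98, while MAPC minus NS was 0.08 (adjusted p = 0.42). Setdb1, the lysine 9 methyltransferase that works with Trim28, was lower in MAPC than in ESC by -0.79 and higher in ESC than in NS by 0.57, and it was lower in MAPC than in NS by -0.22. From the sample channel alone this last difference was 0.16 (limma, adjusted p = 0.396). Cbx5 (HP1 alpha) had 3 probes that disagreed. The brightest was lower in MAPC, by -0.87 against ESC and -0.75 against NS, another was higher by 0.48 and 0.36, and all 4 of these values were called. The remaining probe gave -0.46 and -0.40, neither called, so that no direction can be given for this gene. Suv39h1, which writes the mark HP1 reads, was higher in MAPC than in ESC by 1.25 (limma, adjusted p = 5.48e-05).

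Sap30, a subunit of the Sin3 deacetylase complex, had the largest difference of any member between MAPC and ESC. Its log2 ratios were -3.83 and -3.81 in MAPC, 0.66 and 0.63 in ESC and 0.11 and 0.18 in NS. Both MAPC arrays lay far below the rest, and ESC lay just above NS without overlap. Sap30 was lower in MAPC by -4.47 ± 0.0541 against ESC (limma, adjusted p = 1.18e-08) and by -3.96 ± 0.0541 against NS (adjusted p = 6.95e-09), and higher in ESC than in NS by 0.50. A second probe with no shared run of 20 bases gave -4.28 and -3.70. Its signal in MAPC was close to background: 142.3 and 125.7 in MAPC after background subtraction, 5485 and 5209 in ESC and 3219 and 3782 in NS, where the highest negative control spot on the second MAPC array read 164.6. Without background subtraction the first 2 differences were -3.36 and -2.88. Of 8 measured genes listed for Sin3 alone, 1 was higher and 3 were lower in MAPC than in ESC, none by 1 log2 unit, beside the -1.04 of the shared subunit Rbbp4. Against NS, Brms1 rose by 1.37 and Arid4b fell by 1.35 in MAPC.

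Hdac1 and Hdac2, the paired deacetylases of Sin3, NuRD and CoREST, had different orders. Hdac1 had log2 ratios of 1.06 and 0.91 in MAPC, 2.00 and 1.92 in ESC and 0.81 and 0.91 in NS. ESC was high, and MAPC and NS overlapped. Hdac1 was lower in MAPC than in ESC by -0.97 ± 0.0724 (limma, adjusted p = 2.28e-05) and higher in ESC than in NS by 1.09 (adjusted p = 1.08e-05). Hdac2 had -0.92 and -0.82 in MAPC, -0.06 and -0.15 in ESC and 0.77 and 0.73 in NS. The order MAPC, ESC, NS ran upwards without overlap, with -0.77 for MAPC minus ESC, -1.62 ± 0.0623 for MAPC minus NS (limma, adjusted p = 4.19e-07) and -0.85 for ESC minus NS. Hdac3, the NCoR deacetylase, was lower in ESC than in NS by -0.24 and passed neither test that involves MAPC. Among CoREST and NCoR genes, Rcor2 had -1.06 and -0.76 in MAPC, 2.20 and 2.29 in ESC and 2.13 and 2.29 in NS. MAPC lay below both other groups, by -3.16 against ESC (limma, adjusted p = 3.31e-07) and -3.12 against NS (adjusted p = 2.05e-07). Ncor1 was lower in MAPC than in NS by -1.13. Of 8 NuRD genes, 2 were higher and 3 lower in MAPC than in ESC, and Mta3 was lower in MAPC than in ESC by -1.10 and higher in ESC than in NS by 2.02.

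The class II deacetylases Hdac5 and Hdac6 had opposite orders over the groups. Hdac5, which shuttles between nucleus and cytoplasm, had log2 ratios of -0.13 and -0.19 in MAPC, 0.72 and 0.75 in ESC and 2.22 and 2.22 in NS. NS was highest and MAPC lowest, without overlap. The difference was -0.89 for MAPC minus ESC, -2.38 ± 0.0523 for MAPC minus NS (limma, adjusted p = 2.89e-08) and -1.49 ± 0.0523 for ESC minus NS (adjusted p = 4.28e-07). Hdac6, a cytoplasmic enzyme that deacetylates tubulin, ran the other way, with 2.42 and 2.35 in MAPC, 1.77 and 1.54 in ESC and 0.75 and 0.70 in NS. No groups overlapped, and Hdac6 was higher in MAPC by 0.73 against ESC and 1.66 ± 0.0802 against NS (limma, adjusted p = 1.43e-06), and higher in ESC than in NS by 0.93. Hdac10 was higher in MAPC, by 0.45 against ESC and 0.41 against NS. The class IV enzyme Hdac11 was lower in MAPC, by -0.40 against ESC and -0.57 against NS. Its signal of 23.1 and 27.8 on the MAPC arrays lay under the highest negative controls there (39.9 and 164.6), as on some other arrays. Over the 19 settings tried these differences shrank to as little as -0.11 and -0.16, and the call against ESC was lost under 1.

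Mitochondrial and nuclear sirtuins, which are NAD-dependent deacylases, differed in their order. Sirt3, the main mitochondrial deacetylase, had log2 ratios of -1.30 and -1.33 in MAPC, 0.34 and 0.16 in ESC and 0.20 and 0.21 in NS. MAPC was low, and ESC and NS overlapped. The difference was -1.56 ± 0.0697 for MAPC minus ESC (limma, adjusted p = 1.44e-06) and -1.51 ± 0.0697 for MAPC minus NS (adjusted p = 1.1e-06). Sirt5, the mitochondrial desuccinylase, had -0.15 and -0.05 in MAPC, 1.25 and 0.92 in ESC and 0.91 and 0.93 in NS. It too was low in MAPC alone, by -1.18 ± 0.102 against ESC (limma, adjusted p = 5.28e-05) and -1.02 against NS (adjusted p = 9.1e-05). Without background subtraction these Sirt5 values were -0.74 and -0.62. Sirt1, the nuclear enzyme, had 0.99 and 0.75 in MAPC, 2.33 and 2.34 in ESC and 0.08 and 0.21 in NS. ESC was highest and NS lowest, without overlap, with -1.46 ± 0.0867 for MAPC minus ESC (limma, adjusted p = 6.53e-06), 0.72 for MAPC minus NS and 2.19 for ESC minus NS (adjusted p = 7.6e-07). Sirt2, largely cytoplasmic, was higher in MAPC than in ESC by 0.88, and the nucleolar Sirt7 by 0.84. Sirt7 was also higher in MAPC than in NS by 0.66, and Sirt2 was lower in ESC than in NS by -0.74.

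Kdm5b and Kdm4c, which demethylate histone H3, were highest in ESC. Kdm5b, which removes methyl groups from lysine 4, had log2 ratios of -0.03 and 0.01 in MAPC, 2.44 and 2.26 in ESC and 1.17 and 1.03 in NS. MAPC was lowest and no groups overlapped. The difference was -2.36 ± 0.0779 for MAPC minus ESC (limma, adjusted p = 3.26e-07), -1.11 ± 0.0779 for MAPC minus NS (adjusted p = 1.18e-05) and 1.25 for ESC minus NS. The Kdm5b difference between MAPC and NS was -0.73 without background subtraction. Kdm4c, a lysine 9 demethylase, had 0.61 and 0.70 in MAPC, 2.55 and 2.26 in ESC and 0.73 and 0.88 in NS. ESC stood apart from both other groups, by -1.75 ± 0.101 for MAPC minus ESC (limma, adjusted p = 5.81e-06) and 1.60 for ESC minus NS (adjusted p = 8.41e-06), while MAPC minus NS was -0.15 (adjusted p = 0.286). Kdm6a, which acts on the PRC2 mark, was lower in MAPC than in ESC by -0.48 and higher in ESC than in NS by 0.29. Kdm8 was higher in MAPC than in ESC by 0.58 and by 0.62 with its second probe. Against NS its probes differed in sign, at 0.63 for the brightest, which was called, and -0.15 for the other (limma, adjusted p = 0.192). Kdm5a, the paralog of Kdm5b, differed by 0.17, 0.11 and -0.06 in the 3 comparisons and passed in none.

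Among the members that are methyltransferases outside PRC2, Setd7 and Setd4 had called differences of 2-fold, on probes near background. Setd7, which monomethylates lysine 4 of histone H3 and other proteins, had log2 ratios of 1.38 and 1.25 in MAPC, 0.65 and 0.43 in ESC and -0.05 and -0.10 in NS. MAPC was highest and NS lowest, without overlap, with 0.78 for MAPC minus ESC, 1.39 ± 0.0831 for MAPC minus NS (limma, adjusted p = 4.56e-06) and 0.62 for ESC minus NS. This probe was dim, at or below the highest negative control on 3 arrays, and MAPC minus NS was 0.45 without background subtraction, 2.12 with normexp at offset 0 and 2.14 on the deposited processed intensities. Setd4 had 0.45 and 0.49 in MAPC, 1.57 and 1.18 in ESC and 0.32 and 0.19 in NS. ESC was the high group without overlap, by -0.91 for MAPC minus ESC and 1.13 ± 0.119 for ESC minus NS (limma, adjusted p = 0.000146). Without background subtraction these were -0.58 and 0.68, and the signal of 158.2 on the second MAPC array lay under the highest negative control. Setd1a, the catalytic subunit of a COMPASS complex, was lower in MAPC than in ESC by -0.29, higher in MAPC than in NS by 0.45 and higher in ESC than in NS by 0.74. Of its 9 measured COMPASS partners, 4 were higher and 3 lower in MAPC than in ESC. Rbbp5, a core subunit, had 1.09 and 1.19 in MAPC, -1.17 and -0.93 in ESC and -1.05 and -0.96 in NS. It was high in MAPC alone, by 2.20 over ESC (limma, adjusted p = 8e-07) and 2.15 over NS (adjusted p = 5.74e-07). Dpy30, another core subunit, was lower in MAPC than in ESC by -1.36, and Ash2l was higher in ESC than in NS by 1.42. Kmt5b, which methylates lysine 20 of histone H4, was higher in MAPC by 0.79 against ESC and 0.98 against NS. Its paralog Kmt5c passed in no comparison by its brightest probe, while a dimmer probe was lower in MAPC, by -0.53 against ESC and -0.75 against NS. Dot1l, the lysine 79 methyltransferase of histone H3, was higher in MAPC than in NS by 1.25. Among acetyltransferases, 5 of 7 were lower in MAPC than in ESC and none higher, with Kat2b at -1.01. The share called lower there was 22.1% of all genes and 29.3% of named genes.

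In SWI/SNF, the Smarcd genes encode alternative subunits of the same position, and each had its own order. Smarcd3, the form known from heart, muscle and neurons, had log2 ratios of -0.25 and -0.24 in MAPC, -0.28 and -0.25 in ESC and 1.62 and 1.59 in NS. NS was high and the other two overlapped. Smarcd3 was lower than in NS by -1.85 ± 0.0511 in MAPC (limma, adjusted p = 7.78e-08) and by -1.87 ± 0.0511 in ESC (adjusted p = 1.43e-07). These were -1.14 and -1.15 without background subtraction and -1.20 and -1.28 with the mean of its probes. The Smarcd3 signal of 105.4 on the second MAPC array lay under the highest negative control there (164.6). Smarcd2 had -0.42 and -0.40 in MAPC, 0.35 and 0.21 in ESC and -1.79 and -1.67 in NS. NS was lowest for this form and ESC highest, without overlap, with -0.69 for MAPC minus ESC, 1.32 ± 0.0685 for MAPC minus NS (limma, adjusted p = 2.07e-06) and 2.01 for ESC minus NS. With the mean of the Smarcd2 probes these were -0.32, 0.75 and 1.08. Smarcd1 was lower in MAPC, by -0.70 against ESC and -0.31 against NS, and higher in ESC than in NS by 0.39. A second Smarcd1 probe gave -0.22, -0.01 and 0.21 and was called in none of these. The MAPC minus NS call was lost with the mean of the probes (-0.16, limma, adjusted p = 0.115), and the ESC minus NS call in the sample channel alone (0.14, adjusted p = 0.564). Of the core subunits, Smarcb1 was lower in MAPC than in ESC by -0.26. Smarcc1 gave -0.62 for the same comparison, a call lost under 4 of the 19 settings, and its signal in MAPC was 45.8 and 29.3, where the highest negative controls read 39.9 and 164.6. Without background subtraction the Smarcc1 difference was -0.19. Smarce1 passed in no comparison. Of 11 SWI/SNF partners, 2 were higher and 5 lower in MAPC than in ESC, and 1 was higher and 7 lower in MAPC than in NS. Bcl7a had -1.49 and -1.29 in MAPC, 0.52 and 0.44 in ESC and 1.51 and 1.42 in NS. MAPC was lowest without overlap, by -1.87 against ESC (limma, adjusted p = 1e-06) and -2.85 against NS (adjusted p = 7.37e-08). Ss18l1, a subunit known from neuronal BAF, was lower in MAPC by -1.20 against ESC and -2.04 against NS. The 5 neuron genes given above were mixed, with 1 higher and 1 lower in MAPC than in ESC. Against NS, 1 was higher and 4 were lower, and the part of neurons in Ss18l1 was not tested. Actl6a, a subunit known from the BAF complexes of progenitors, was lower in MAPC than in ESC by -1.26 and higher in ESC than in NS by 1.20.

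Among 4 CHD and 2 ISWI remodellers, Chd1 alone had a called difference of 2-fold. Chd1, which binds methylated lysine 4 of histone H3 and keeps chromatin of mouse ESC open, had log2 ratios of 1.64 and 1.64 in MAPC, 1.24 and 1.14 in ESC and 0.54 and 0.60 in NS. MAPC was highest and NS lowest, without overlap. Chd1 was higher in MAPC by 0.45 against ESC and 1.07 ± 0.0578 against NS (limma, adjusted p = 2.58e-06), and higher in ESC than in NS by 0.62. Without background subtraction MAPC minus NS was 0.43. The NuRD ATPase Chd4 was lower in MAPC than in ESC by -0.25 and than in NS by -0.24. For Chd3, the other NuRD ATPase, the brightest of 3 probes gave -0.45 and -0.35, both called, while a probe of almost the same brightness gave 0.18 and 0.16 and a dim one 0.09 and 0.07, none of them called. The mean of the Chd3 probes gave -0.06 (limma, adjusted p = 0.599) and -0.04 (adjusted p = 0.729), so that no direction can be given for this gene. Of the ISWI ATPases, Smarca1 was lower in MAPC by -0.81 against ESC and -0.76 against NS, while Smarca5 was called only in ESC minus NS, at 0.28. Chd1l, a remodeller that poly(ADP-ribose) activates, was lower in MAPC than in ESC by -0.50 and higher in MAPC than in NS by 0.30.

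**Figure D4:**
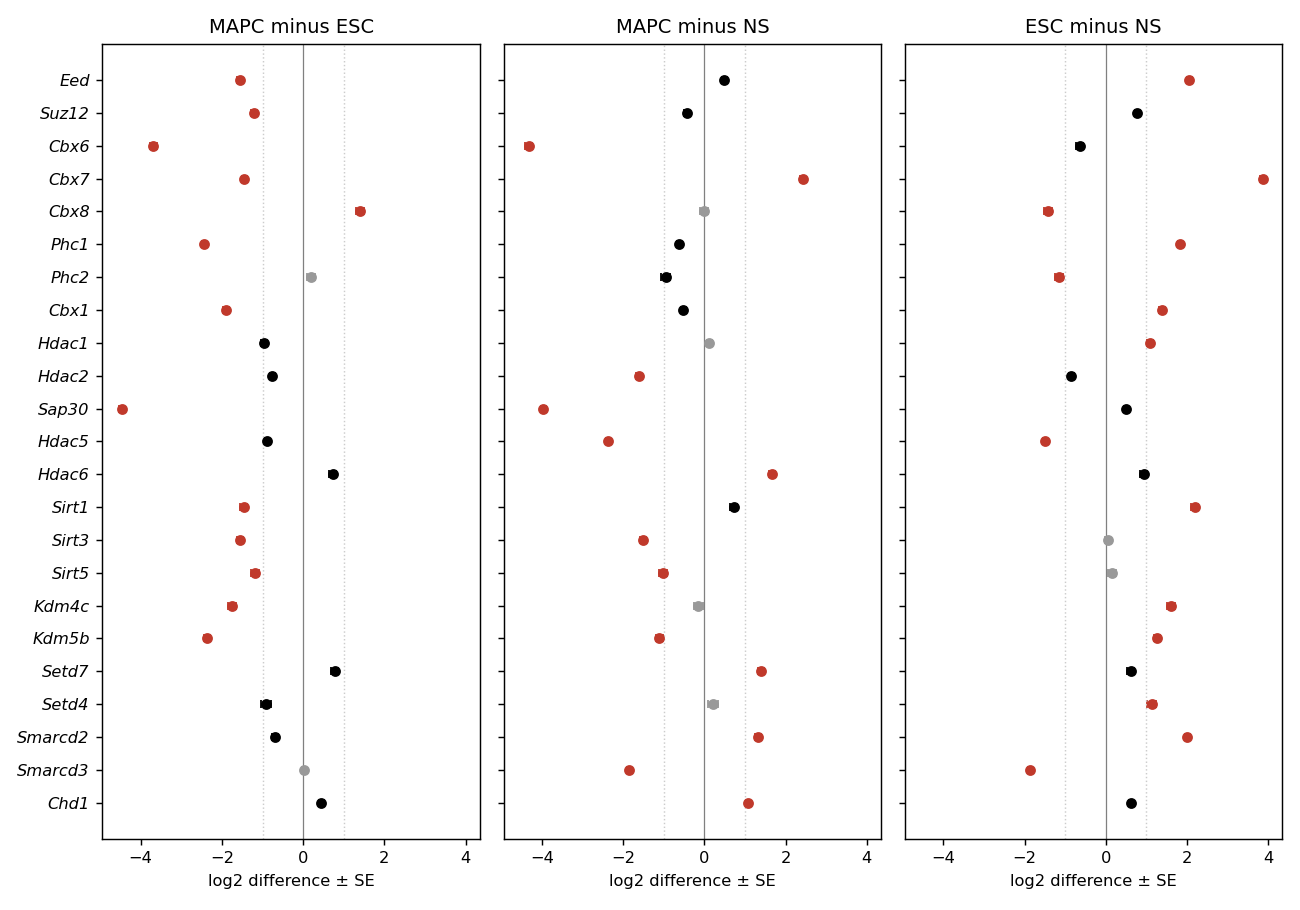
Log2 difference of group means with its SE (x axis, with a panel for each of the 3 comparisons) for 23 chromatin genes with a called difference of at least 1 log2 unit in some comparison. Red points are called and at least 1 in size (dotted lines), black points are called and smaller, and grey points are not called; Sap30 and Cbx6 are farthest below 0 in both comparisons with MAPC, and Cbx7 is farthest above 0 in ESC minus NS.

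Several probes measured 17 of the members, in 21 pairs. No pair shared a run of 20 bases within the 60-base probes. In 25 results both probes of a pair were called, and 2 of these had opposite signs, both from Cbx5. The second Phc1 probe gave -1.78 for MAPC minus ESC and 1.47 for ESC minus NS. For Smarcd2 a dim second probe gave 0.04 for MAPC minus ESC and 0.15 for ESC minus NS, neither called. Kdm8 had a second probe that was lower in ESC than in NS by -0.77, where the brightest gave 0.05 and was not called.

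**Figure D5:**
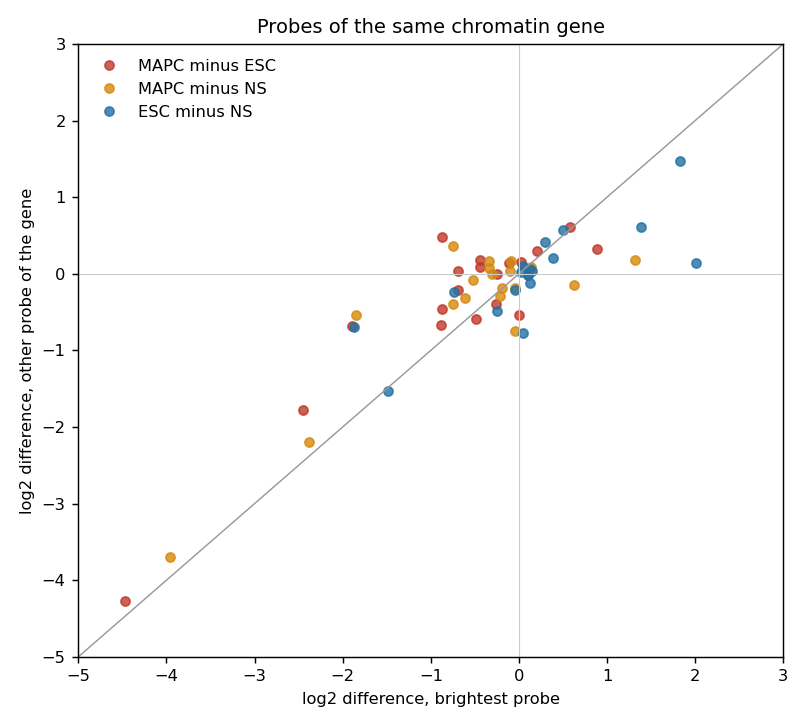
Log2 difference by the brightest probe (x axis) against that by each other probe of the same gene (y axis) for 17 members, coloured by comparison, with the line of equal values. Pairs without the brightest probe are not drawn. The Sap30 points at -4.47 and -3.96 lie near the line, and 2 Cbx5 points at -0.87 and -0.75 lie on the other side of 0 on the y axis.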

How the data were processed

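The deposited scanner files hold mean and median-background intensities per spot and dye, extracted, per the file headers, with Agilent Feature Extraction. Their processed intensities, and the log10 series matrix, whose centring is unknown (column medians 2.95 to 2.97), served as alternatives. The log10 ratios deposited with them were not fitted. Of the series matrix spots without a value at its floor, 93.9% equalled these ratios plus a constant of the spot. The alternatives are not independent of each other. The genome build and probe annotation are not given in the sources used here. Intensities were corrected with normexp (offset 50) and loess in limma 3.58.1 under R 4.3.3 (files read with the data.table package, version 1.17.8), leaving out control and outlier spots. Probes were named through RefSeq accessions (15294 of 41006 probes, 73 of the 74 probes used here, and 1 by an older symbol), and the brightest probe stood for a gene. A gene was tested if well above background on both arrays of at least 1 group. The 3 contrasts came from 1 limma fit (lmFit, eBayes, two-sided, 6 arrays, 3 residual degrees of freedom) with Benjamini-Hochberg adjustment over all genes and a threshold of 0.05, and the fit was tested on simulated data. With 2 arrays per group no permutation of arrays can reach that threshold. The number of arrays limits the precision.

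Symbols, not values, defined the members, and complexes and partner lists were written by family; all were chosen with earlier results of these data known, and no list was tested as a set. Values per array were printed for Sap30, Phc1, Trim28 and members called with at least 1 log2 unit (1 such member counts in the totals and is not reported here), and at most 4 partners per list were named by the same size. Alternatives covered background, normalization, the sample channel alone, filters, probe choice, the groups fitted, a replicate block and leaving out each array. Columns of per-sample values without a sample numbered 0.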

Additional observations from a re-analysis of the deposited data

How the results depend on the processing

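Of 117 called member differences, 89 kept their call and direction under all 19 settings tried, 41 of the 41 of at least 1 log2 unit among them, and 28 lost it under at least 1 setting. Of 48 differences not called, 18 were called under at least 1 setting. Not every setting could change a member result. Both changes of the filter and fitting each probe as its own row kept the members' values, with 165 results the same in each. Leaving out an array of the group outside a comparison also keeps the difference and changes only its error. From the sample channel alone, MAPC minus ESC called 8834 of all genes (3804 higher, 5030 lower), ESC minus NS called 4589 higher, and 34 partner genes were called in ESC minus NS against 54 in the fit reported. On that channel Setdb1 turned to 0.16 in MAPC minus NS and Hdac11 to 0.034 in ESC minus NS, neither called. With the mean of the probes, Kmt5c turned to -0.26 in MAPC minus ESC and Kdm8 to -0.36 in ESC minus NS, both called, since their second probes differ from the brightest, and Cbx5 shrank to -0.29 in MAPC minus ESC. The cause of the other changes was not tested. Leaving out single arrays called between 38 and 42 members in MAPC minus ESC, 33 and 39 in MAPC minus NS and 30 and 34 in ESC minus NS. Differences that lost their call without at least 1 array numbered 20, with adjusted p (limma) there between 0.0501 and 0.241. In MAPC minus ESC these included Chd3, Chd4, Phc3, Setd1a, Setd3, Setd5 and Smarcb1, in MAPC minus NS Chd1l, Chd3, Chd4, Setdb1, Smarcb1 and Smarcc1, and in ESC minus NS Hdac11, Hdac3, Kdm6a, Kmt5b, Setd5 and Smarca5. Each array left out cost 8 to 12 calls. Replicate numbers coincide with image extraction days, and deviations of same-numbered arrays correlated by 0.101 (MAPC and ESC), 0.162 (MAPC and NS) and 0.208 (ESC and NS). With the replicate block, the calls over all genes were 14193, 16317 and 14168 in the order above and those over members stayed at 44, 38 and 35 in number; Setd5 lost its call in MAPC minus ESC (adjusted p = 0.0555) and Hdac3 gained one. Within days, 38 of the 41 larger differences were at least 1 log2 unit on both, by the same arrays that gave the calls. Array signal limits 14 members whose probe lay at or below the highest negative control on at least 1 array, while 41 lay above it on all.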
